A study of Mus musculus with 8 samples.

Results

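The excitation-contraction coupling genes of muscle were described in cultured mouse muscle stem cells given Cre, to delete part of Chd4, or GFP. The members were the rows of the deposited gene table named Ryr1, Casq1, Casq2, Atp2a1, Atp2a2, Cacna1s, Jph1, Jph2, Trdn and Stac3, which gave 10 genes of 20976, and all 10 passed the filter on low values. The cells came from muscle of Chd4LoxP/LoxP mice, so both groups carried the loxP sites. The cells were sorted by flow cytometry and expanded briefly in medium with 20% serum and 5 ng/ml basic FGF. In the Cre group an adenovirus delivered Cre recombinase, which removes exons 12 to 21 of Chd4, which encodes a chromatin remodelling ATPase of the NuRD complex. In the GFP group the adenovirus carried green fluorescent protein instead, and Cre without loss of Chd4 was not measured. Each group held 4 libraries, and the series' design text gives 4 mice per condition. The labels give no strain, age, sex or time after infection, and leave unstated whether equal numbers mark the same mouse. Both groups came from sorted muscle stem cells in culture, and no isolated muscle fibres were sampled.

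Excitation-contraction coupling turns the electrical signal of the muscle fibre membrane into a release of calcium. The voltage sensor of the membrane tubules (Cacna1s, with its adaptor Stac3) opens the release channel of the sarcoplasmic reticulum (Ryr1, held by triadin, Trdn), and calcium stored on calsequestrin (Casq1, Casq2) flows out. SERCA pumps (Atp2a1, Atp2a2) return the calcium, and junctophilins (Jph1, Jph2) hold both membranes together at the triad. Most of these genes are switched on as myoblasts differentiate and fuse, whereas Atp2a2 is also active in cells that are not muscle.

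The upstream sequences of 4 members are shown as background, because myogenic factors are known to bind E-boxes upstream of muscle genes. RefSeq promoter windows (GRCm38.p6) were held for 6 of the 10 members, namely Cacna1s, Ryr1, Casq1, Casq2, Atp2a1 and Jph2. Capitals mark E-boxes (CANNTG on either strand, which includes CAGCTG, the form that MyoD and myogenin prefer) and matches to the MEF2 consensus. The stretches are written 5′ to 3′ on the strand of the gene and end where the first annotated transcript begins. They lie at chr1:172219896-172220145 (minus strand, Casq1), chr1:136052561-136052749 (plus strand, Cacna1s), chr7:126463109-126463323 (minus strand, Atp2a1) and chr3:102086165-102086414 (plus strand, Casq2).
Casq1: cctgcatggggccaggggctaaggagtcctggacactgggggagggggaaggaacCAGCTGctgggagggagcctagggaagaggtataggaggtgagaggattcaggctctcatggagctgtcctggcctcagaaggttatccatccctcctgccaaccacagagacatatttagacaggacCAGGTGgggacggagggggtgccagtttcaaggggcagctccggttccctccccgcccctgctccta
Cacna1s: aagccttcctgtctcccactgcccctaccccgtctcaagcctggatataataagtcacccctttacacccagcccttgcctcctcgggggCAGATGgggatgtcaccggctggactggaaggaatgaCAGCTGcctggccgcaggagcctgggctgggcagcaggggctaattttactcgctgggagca
Atp2a1: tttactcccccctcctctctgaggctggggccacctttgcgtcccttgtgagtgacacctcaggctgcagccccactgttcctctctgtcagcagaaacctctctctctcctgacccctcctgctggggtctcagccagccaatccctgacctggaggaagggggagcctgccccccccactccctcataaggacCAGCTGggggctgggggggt
Casq2: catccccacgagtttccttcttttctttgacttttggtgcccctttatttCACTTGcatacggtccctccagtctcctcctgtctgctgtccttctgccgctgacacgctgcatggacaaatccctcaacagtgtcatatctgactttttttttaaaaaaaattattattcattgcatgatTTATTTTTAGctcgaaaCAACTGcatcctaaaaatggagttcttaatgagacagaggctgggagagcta
CAGCTG was found in the 250 bases before the RefSeq start of 4 of these 6 members (Casq1 at -195, Cacna1s at -123, Atp2a1 at -55 and Jph2), against 13% of all 32851 windows of that length. Any E-box was found in 5 of 6, which says little since 66.2% of all windows held one. Ryr1, whose sequence is not shown, held none. A MEF2 consensus was found only before Casq2, at -69, against 2.92% of all windows. The CArG box consensus (CC, then 6 letters of A or T, then GG) was also searched. It was found before 0 of the 6 members, against 1.47% of all windows. A match describes the letters and not a bound site, and Stac3, Trdn, Jph1 and Atp2a2 were not searched. Members were counted per gene and the background per window. Whether these matches have a part in the members' levels was not tested.

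Values are reads per gene that the submitters scaled between libraries and rounded, called normalised reads here. The totals lay between 27897860 and 28876348. The depth before scaling, estimated from gaps or doublings among the low values, lay between 23.3 and 38.0 M reads. Chd4 stood at 3686 to 5480 in the Cre libraries and at 15904 to 20121 in the GFP libraries, so every library matched its label. Each Cre library kept 0.206 to 0.345 of the Chd4 level of the GFP library with the same number. Reads per gene cannot tell uncut alleles from transcripts that lack the deleted exons. The cells carried the muscle stem cell marker Pax7 (4381 to 6704), the muscle cadherin Cdh15 (6493 to 8117) and the commitment factor Myod1 (30708 to 47778). These are 3 of 9 myoblast identity markers, of which 8 were tested. In the paired model described below, 1 of the 8 rose (Myod1), 4 fell (Pax7, Myf5, Vcam1 and Cd34) and 3 were not called. Over all genes tested 22.2% were higher and 21.7% lower in that model, and without pairing 0 of the 8 passed. Genes of differentiated muscle were read in every library too, among them Myog (8884 to 32566), Myh3 (14907 to 82821) and Acta1 (14959 to 80609). Ckm, another such gene, was low at 25 to 190. The share of differentiated cells was not measured. The blood cell markers Ptprc, Adgre1 and Cd3e were not listed, while Csf1r was under the filter. Cd68, a macrophage marker, was at 396, 82, 114 and 220 in Cre and at 243, 28, 57 and 125 in GFP, and rose in the paired model described below by 1.00 on the log2 scale (limma with block, adjusted p = 0.000369), higher in 4 of 4 pairs. Of 6 endothelial markers 5 were listed and 2 were tested, of which Tek rose in the paired model and Pecam1 was not called. The sum of the 5 was higher in every Cre library (278 to 408) than in any GFP library (141 to 184). Of 6 smooth muscle and pericyte markers all were listed, 3 were tested and 1 (Rgs5) rose, while Myh11, Cnn1 and Kcnj8 stayed under the filter. The sums of the 6 were 55453 to 87362 in Cre and 24383 to 44568 in GFP. Rgs5 averaged 36372 in Cre and 8646 in GFP, and passed without pairing too (limma, adjusted p = 0.0277). Acta2 averaged 29084 in Cre and 29166 in GFP, and neither it nor Pdgfrb was called. Of 6 fibroblast markers 2 were tested, of which Col3a1 fell (limma with block, adjusted p = 0.00278) and Pdgfra was not called. Of 5 Schwann cell markers 2 were tested and 0 called in the paired limma model. Of 6 cardiac markers 1 was tested, Tnni3, which was low (11 to 97) and rose by 0.96 (limma with block, adjusted p = 0.0169). Without pairing 0 of these passed. The part of all these cell types in the results was not tested. Libraries 1 and 4 of both groups held Xist at 40670 to 49984 and libraries 2 and 3 at no more than 12, and Y-linked Ddx3y went the other way (at most 4 against 3141 to 3823).

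Most of these genes differed far more between replicate numbers than between Cre and GFP. The 10 members differed up to 41.9-fold between GFP libraries, and within a replicate number 9 of 10 were higher in Cre in 4 of 4 pairs, by 1.01 to 2.01 times (27.9% of all genes tested were higher in 4 of 4 pairs). Jph2 was the exception, higher in 1 pair and lower in 3. Over all genes tested, 27.6% were lower in 4 of 4 pairs. In the model without pairing 0 of 10 members passed in either direction (limma, Benjamini-Hochberg adjusted p under 0.05), where 1.08% of all genes were called, 0.837% as higher and 0.248% as lower. Before adjustment 1 member was higher at p under 0.05 and 0 were lower, against 7.41 and 9.30% of all genes, and voom called 0. Cre and GFP libraries overlapped for all 10 members, while over all genes tested 4.41% had all Cre libraries above and 6.17% all below the GFP libraries. Blocking on the replicate number (the paired model) called 8 higher and 0 lower, where 43.9% of all 12910 genes tested were called, 22.2% as higher and 21.7% as lower. The median log2 change was 0.32 over the members and -0.000814 over all genes tested. The members were chosen with earlier results of these data known, and their count is a description.

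**Figure D1:**
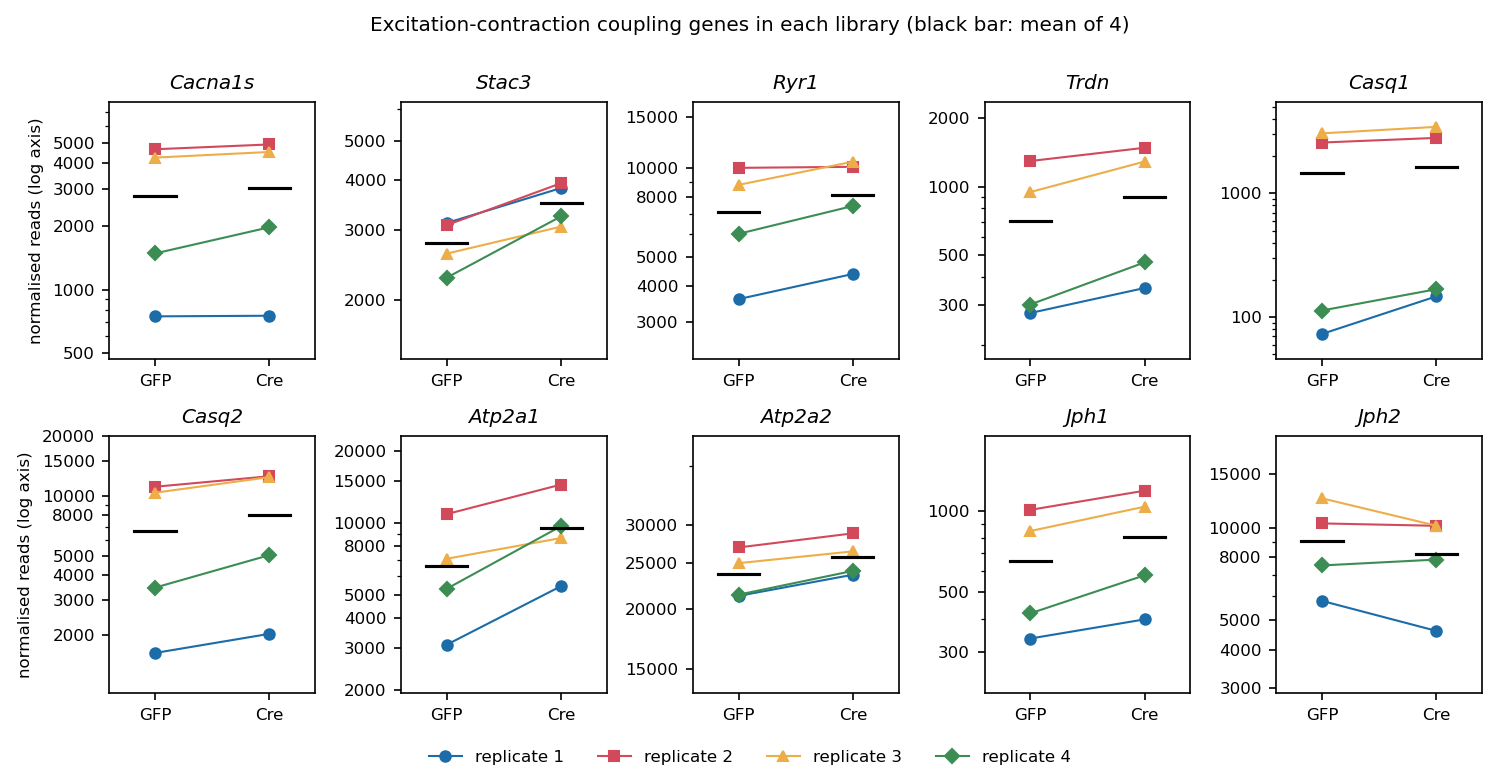
Normalised reads (log axis) of the 10 genes in the GFP and Cre libraries, with 1 line and symbol per replicate number and a black bar at the mean of 4. Replicates 2 and 3 lie above 1 and 4 in both groups for 8 of the 10 genes, and most lines slope upward to Cre except those of Jph2.

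The voltage sensor Cacna1s, the pore-forming subunit of the skeletal L-type calcium channel, lies on chromosome 1 (136052750 to 136119822, plus strand). Replicates 1 to 4 gave 751, 4912, 4524 and 1981 normalised reads with Cre and 746, 4661, 4253 and 1487 with GFP. Libraries 2 and 3 were high and library 1 low in both groups, and the groups overlapped. The Cre mean was 3042 ± 2006 and the GFP mean 2787 ± 1959 (SD, n = 4 each). Its log2 change of 0.15 passed neither without the block (SE 0.76, limma, adjusted p = 0.953) nor with it (SE 0.06, limma, adjusted p = 0.0868). The paired model called it higher without pair 1 (adjusted p = 0.0372) and with upper-quartile rescaling (adjusted p = 0.0385).

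Stac3 encodes the adaptor that carries the voltage sensor to the triad and couples it to the release channel. Its gene lies on chromosome 10 (127501686 to 127508823, plus strand). Counts of 3811, 3919, 3051 and 3237 were found in the Cre libraries and of 3116, 3078, 2612 and 2274 in the GFP libraries. Here the libraries differed by at most 1.37-fold within a group, and libraries 1 and 2 were the higher ones in both. The GFP mean was 2770 ± 402 and the Cre mean 3504.5 ± 425 (SD, n = 4 each). Stac3 was the 1 member below 0.05 before adjustment, but it did not pass over all genes (limma, log2 change 0.34 ± 0.13 SE, adjusted p = 0.239). With the block it rose (SE 0.05, limma, adjusted p = 0.000453).

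Ryr1, the calcium release channel of skeletal muscle, lies on chromosome 7 (29003344 to 29125151, minus strand). Library by library it stood at 4382, 10131, 10546 and 7458 in Cre and at 3600, 10050, 8797 and 5998 in GFP. Replicate 2 was nearly level, with a Cre to GFP ratio of 1.01, and the other pairs had ratios of 1.20 to 1.24. The means were 8129 ± 2848 and 7111 ± 2889 (SD, n = 4 each). The log2 change of 0.22 passed with the block (SE 0.05, limma, adjusted p = 0.00759) and not without it (SE 0.38, limma, adjusted p = 0.835).

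Trdn encodes triadin, which anchors calsequestrin to the release channel, on chromosome 10 (33080554 to 33476709, plus strand). In Cre it was at 356, 1483, 1289 and 462, and in GFP at 276, 1296, 945 and 301. Libraries 2 and 3 were again the high ones, and Cre was at 1.14 to 1.53 times GFP within pairs. Trdn rose by 0.41 on the log2 scale with the block (SE 0.07, limma, adjusted p = 0.00147), and without it the same change had an SE of 0.66 (limma, adjusted p = 0.82).

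Casq1, the calsequestrin of fast fibres and the main calcium buffer of the store, had the widest spread of the 10 members. The gene lies on chromosome 1 (172209894 to 172219868, minus strand). Cre libraries 1 to 4 held 147, 2811, 3453 and 168 normalised reads, and GFP libraries 1 to 4 held 73, 2578, 3058 and 113. Libraries 2 and 3 exceeded libraries 1 and 4 by more than 10 times in both groups. Within pairs the Cre to GFP ratio was 2.01 and 1.49 in the low replicates 1 and 4 and 1.09 and 1.13 in the high replicates 2 and 3. With the block Casq1 rose by 0.47 (SE 0.12, limma, adjusted p = 0.0116), and without the block the SE was 1.62 (limma, adjusted p = 0.925). With voom and the block the change was 0.22 and the call was lost (adjusted p = 0.0501), and without pair 1 it was 0.29 (limma with block, adjusted p = 0.0157).

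Casq2, the isoform of heart and of slow and immature skeletal muscle, lies on chromosome 3 (102086415 to 102146514, plus strand). Its values were 2017, 12591, 12465 and 5035 in Cre and 1615, 11142, 10399 and 3452 in GFP. Unlike Casq1, replicate 4 lay clearly above replicate 1. All 4 pairs were higher in Cre, by 1.13 to 1.46 times, and the log2 change of 0.33 passed with the block (SE 0.06, limma, adjusted p = 0.00113) and not without it (SE 0.78, limma, adjusted p = 0.888). Per exonic kilobase Casq1 reached 0.313 and 0.388 of the Casq2 level in Cre libraries 2 and 3 and 0.324 and 0.412 in the same GFP libraries, but only 0.0459 to 0.102 in libraries 1 and 4. That ratio was higher in Cre in replicate 1 (1.61 times) and within 6% of its GFP value in the others.

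Atp2a1, the SERCA1 pump of fast fibres, had the largest log2 change of the 10. It lies on chromosome 7 (126445858 to 126463108, minus strand) and overlaps Rabep2 on the other strand, which averaged 629.2 normalised reads. Strand use in counting is not given in the sources used here, so some reads could belong to either gene. Cre libraries held 5458, 14531, 8680 and 9732, and GFP libraries 3105, 10931, 7108 and 5325. Replicate 2 was highest and replicate 1 lowest in both groups, and the ratio within pairs was 1.76, 1.33, 1.22 and 1.83 in replicates 1 to 4. The mean went from 6617 ± 3309 to 9600.25 ± 3757 (SD, n = 4 each), a log2 change of 0.60 that passed with the block (SE 0.09, limma, adjusted p = 0.000372) and not without it (SE 0.41, limma, adjusted p = 0.515).

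Atp2a2, which encodes the SERCA2 pump of slow and cardiac muscle and of other cells, was the most abundant member. It lies on chromosome 5 (122453514 to 122502225, minus strand). Values ran from 23645 to 28865 in Cre and from 21356 to 26967 in GFP, with every Cre library 1.06 to 1.12 times its GFP partner. Its log2 change of 0.12 was the smallest among the 8 that rose (SE 0.04 with the block, limma, adjusted p = 0.0375). Without pair 1, 2 or 4, or with libraries rescaled to equal totals, the paired call was lost (adjusted p up to 0.119). Per exonic kilobase the Atp2a1 level was 0.254 to 0.709 of that of Atp2a2 in GFP and 0.404 to 0.88 in Cre, higher in Cre in each of the 4 pairs by 1.15 to 1.63 times. No test was run on these isoform ratios.

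Of the junctophilins, Jph1 rose in the paired model and Jph2 passed in neither model. Jph1, the skeletal isoform, lies on chromosome 1 (16994938 to 17097889, minus strand) and stood at 397, 1195, 1042 and 579 in Cre and at 337, 1014, 846 and 418 in GFP. Its rise was 0.31 with the block (SE 0.06, limma, adjusted p = 0.003), with ratios of 1.18 to 1.39 in the 4 pairs. Jph2, the isoform that heart muscle also uses, lies on chromosome 2 (163336242 to 163397993, minus strand).

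Jph2 values were 4608, 10150, 10157 and 7875 in Cre and 5773, 10334, 12477 and 7535 in GFP. Cre was at 0.798 and 0.814 of GFP in replicates 1 and 3, at 0.982 in replicate 2 and at 1.05 in replicate 4. The log2 change of -0.15 did not pass without the block (SE 0.31, limma, adjusted p = 0.871) or with it (SE 0.06, limma, adjusted p = 0.091), though the paired model called it lower without pair 4 or with equal totals (adjusted p down to 0.0254). Per exonic kilobase the Jph1 to Jph2 ratio lay between 0.0472 and 0.0835 in GFP and between 0.0626 and 0.1 in Cre, and was higher in Cre in 4 of 4 pairs (1.20 to 1.51 times). Whether the responses of both genes differ was not tested.

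**Figure D2:**
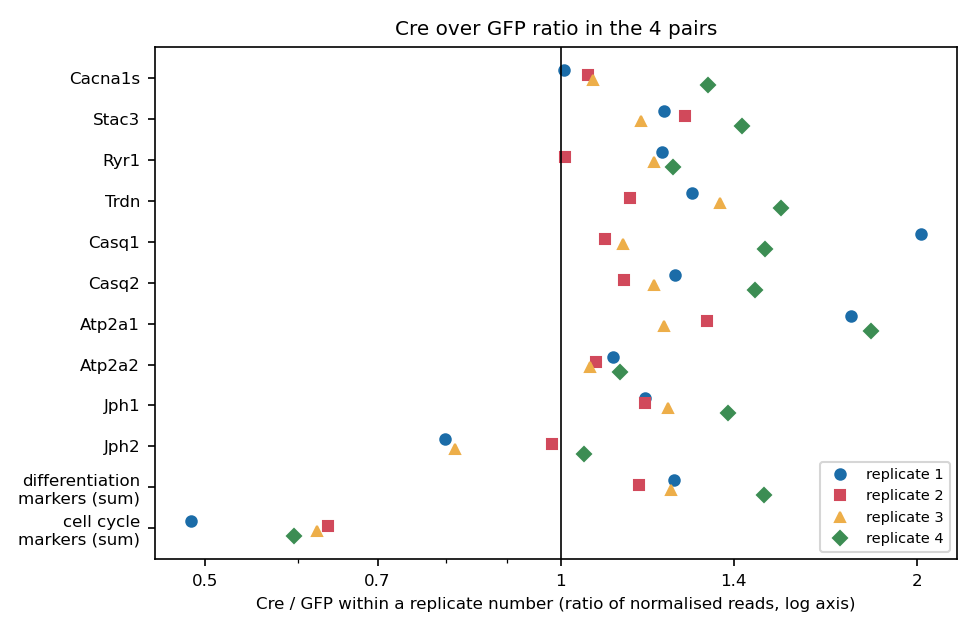
Cre to GFP ratio of normalised reads within each replicate number (log axis; a vertical line marks 1), with 1 symbol per pair, for the 10 genes and for the summed differentiation and cell cycle markers. Points of 9 genes lie right of 1 in all 4 pairs, Jph2 lies on both sides, and the summed cell cycle markers lie between 0.487 and 0.635.

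The spread of the 10 genes followed the replicate number. On the log2(value + 1) scale, the replicate number held a median of 94.5% of the sum of squares of a member and the group 4.17%, against medians of 70.2 and 15.4% over all genes tested. Cacna1s was the extreme, with 99.0% for the replicate number and 0.448% for the group. Stac3 was the other end, with 45.0% for the replicate number and 50.3% for the group. Libraries 2 and 3 lay above libraries 1 and 4 in both groups for 8 of 10 members, the exceptions being Stac3 and Atp2a1, and for 13.2% of all genes tested. Since libraries 2 and 3 were also those with little Xist, mouse, sex and culture cannot be told apart here. In bulk RNA a larger share of differentiated cells and more RNA of these genes per cell cannot be told apart either.

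The Cre to GFP ratio was larger in both replicates 1 and 4 than in both replicates 2 and 3 for Ryr1, Casq1, Casq2, Atp2a1 and Atp2a2, 5 of 10 members, while 13.5% of all genes tested had this order. It was a split seen in the values, and it was not tested.

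Muscle differentiation markers rose in the paired model, as did 8 of the 10 members. Of 18 such genes (among them Myog, Myh3, Ckm, Acta1 and Ttn) 17 were tested, 0 passed without the block (0 at an unadjusted p under 0.05, 0 with voom) and 17 rose with it, against 22.2% of all genes. Summed, they gave 156533, 501604, 483556 and 294496 with Cre and 125509, 431162, 390502 and 198216 with GFP in replicates 1 to 4. The ratio within pairs was 1.25, 1.16, 1.24 and 1.49. Beside it, Casq2 had 1.25, 1.13, 1.20 and 1.46, and Stac3 had 1.22, 1.27, 1.17 and 1.42. Other members lay further off, such as Atp2a1 with 1.76, 1.33, 1.22 and 1.83, and Cacna1s with 1.01, 1.05, 1.06 and 1.33. Jph2 had 0.798, 0.982, 0.814 and 1.05. Over the 8 libraries, Stac3 had a Pearson r of -0.293 to 0.485 with the other members (median 0.0943). Myog, the factor that starts terminal differentiation, was itself at 8884 to 26033 in GFP and 13513 to 32566 in Cre. Cell cycle markers went the other way, with 16 of 16 lower with the block (21.7% of all genes), 11 at an unadjusted p under 0.05 without it, 0 passing without it in limma or voom, and sums of 26847 to 63344 in Cre and 55128 to 106509 in GFP. The part of either list in the changes of the members was not tested.

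The 5 genes outside the 10 whose levels over the 8 libraries were most like the members' mean standardised profile were Ncf1, Myl1, Tnni1, Myl6b and Tnnc1. Their Pearson r was 0.997 to 0.998, over 8 libraries that form 4 pairs. In the mean profile libraries 2 and 3 stood at 0.435 to 1.08 and libraries 1 and 4 at -1.24 to -0.117. Thus r describes a graded order with libraries 2 and 3 on top, over libraries that are not independent. Myl1 and Myl6b encode myosin light chains, Tnni1 and Tnnc1 are slow troponins, and Ncf1 encodes a subunit of the phagocyte NADPH oxidase. Tnnc1, for example, went 10766, 30135, 24434 and 14265 in Cre and 7980, 24641, 21798 and 9389 in GFP. Among all other genes tested 3.8% had an r over 0.9.

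Levels were compared between genes only per exonic kilobase (union of exons in GENCODE M21). In GFP, Atp2a2 was highest with 3898 ± 453 normalised reads per kilobase, followed by Casq2 with 2431 ± 1763, Jph2 with 2122 ± 698 and Atp2a1 with 1903 ± 952 (SD, n = 4 each). In Cre the order was the same except that Atp2a1 stood above Jph2. Stac3 followed in GFP with 1089 ± 158 and Casq1 with 746 ± 813. The lower ranks were Cacna1s with 425 ± 299, Ryr1 with 326 ± 132, Jph1 with 131 ± 65.6 and Trdn with 75.3 ± 53.6. The ranges over the 4 libraries overlapped for all 9 neighbours in this order, in GFP and in Cre. Within libraries, Ryr1 lay above Jph1 and Jph1 above Trdn in every library of both groups, Atp2a2 above Casq2 in 4 of 4 GFP and 3 of 4 Cre libraries, and Atp2a1 above Jph2 in 4 of 4 Cre libraries and 1 of 4 GFP libraries. The other neighbours changed places between libraries of the same group. Trdn has several transcripts, and a long exon union lowers its level per kilobase.

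**Figure D3:**
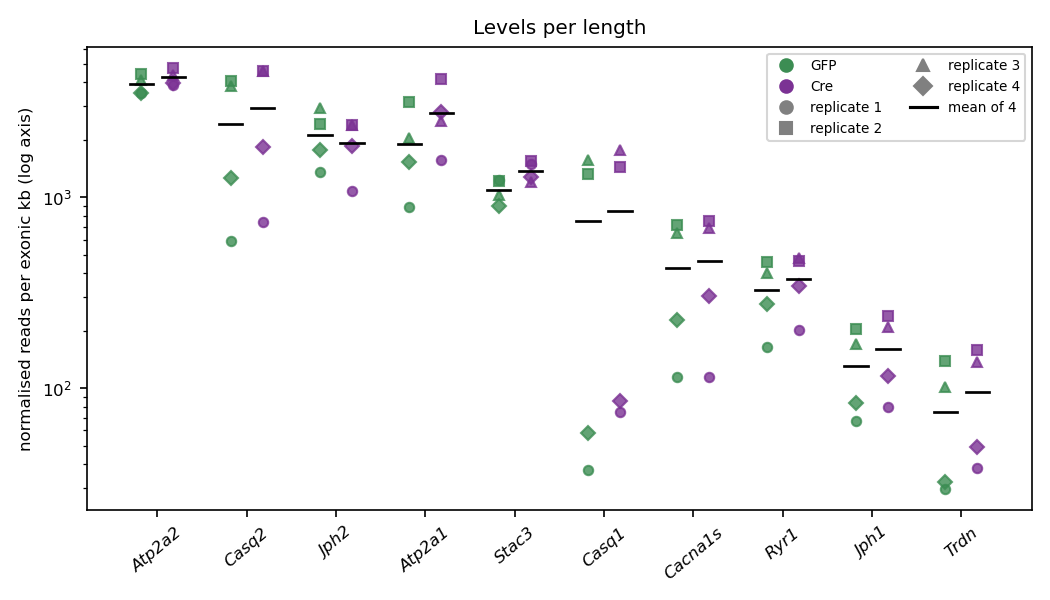
Normalised reads per exonic kilobase (log axis) of the 10 genes, ordered by their GFP mean, with 1 symbol per library (green GFP, purple Cre) and a black bar at the mean of 4. Levels span from about 29.5 for Trdn to 4747 for Atp2a2, and Casq1 falls into a high and a low set of libraries.

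Of the other genes of the coupling machinery more rose than fell in the paired model. Of 48 listed genes 47 were in the table and 40 were tested. Without the block 0 passed in either direction (limma, and 0 with voom; before adjustment 2 were higher and 1 lower at p under 0.05), and with it 23 rose, 2 fell and 15 were not called, beside 22.2% higher and 21.7% lower over all genes tested. Their median log2 change was 0.24, against -0.000814 over all genes tested. The lists were drawn up with earlier results of these data known.

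Of 7 tested subunits and adaptors of the voltage sensor, 3 rose, 1 fell and 3 were not called with the block. The 4 calls are near the 43.9% of all genes called in that model, 22.2% as higher and 21.7% as lower. The gamma subunits Cacng1 and Cacng6 rose by 0.32 (limma with block, adjusted p = 0.0133) and 0.33 (limma with block, adjusted p = 0.00325). Cacng6, for example, was at 273, 1092, 896 and 316 in Cre and at 208, 900, 771 and 236 in GFP, the replicate pattern of Casq1 in a milder form. Stac2, a relative of Stac3 known from neurons, went the other way, with 2204, 1496, 1777 and 2273 in Cre and 3125, 1942, 2504 and 2932 in GFP. It fell by 0.44 on the log2 scale, lower in 4 of 4 pairs (limma with block, adjusted p = 5.7e-05, without block 0.29). Cacna1c, the cardiac L-type channel, was low at 19 to 91 in GFP and 22 to 90 in Cre.

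Among 8 tested release channels and their regulators, 3 rose and 5 were not called with the block. These 3 calls are near the 43.9% over all genes, where 22.2% were higher and 21.7% lower. The calcium-binding regulator S100a1 rose by 0.37 (limma with block, adjusted p = 0.000899). The inositol trisphosphate receptors Itpr2 and Itpr3 rose by 0.19 and 0.17 (limma with block, adjusted p = 0.0286 and 0.0296), calls that were each lost without any of 3 single pairs (adjusted p up to 0.116 and 0.164). Ryr3, the release channel of immature muscle, was at 21 to 62 in GFP and 30 to 59 in Cre. The cardiac channel Ryr2 was at 384 in Cre library 4 and 473 in GFP library 4, and at no more than 2 in the other 6 libraries, and was not tested because of the filter.

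Of 12 tested genes of the triad and sarcoplasmic reticulum, 10 rose and 2 were not called with the block. Over all genes 43.9% were called in that model and 22.2% were higher. Hrc, a calcium-binding protein of the store, rose by 0.48 (limma with block, adjusted p = 0.000484), Dysf, the membrane repair protein dysferlin, by 0.39 (adjusted p = 0.000605), and Tmem38b, a counter-ion channel of the reticulum, by 0.33 (adjusted p = 0.000594). Tmem38b stood at 1690, 1904, 1470 and 1549 in Cre and at 1418, 1530, 1203 and 1114 in GFP, so like Stac3 it varied little over replicates. Hrc by contrast varied from 544 to 1786 within GFP, with the members' high libraries 2 and 3.

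Of 7 tested other pumps and pump regulators, 5 rose and 2 were not called with the block, beside the same 43.9% called and 22.2% higher. Atp2a3, the SERCA3 pump known from blood and endothelial cells, went from 116, 186, 182 and 108 in GFP to 293, 387, 468 and 162 in Cre. It rose by 1.08 (limma with block, adjusted p = 0.000121, without block 0.189). Of the endothelial markers given above, Tek rose and Pecam1 was not called. The part of such cells in the change of Atp2a3 was not tested. Atp2b4, a calcium pump of the plasma membrane, rose by 0.71 (limma with block, adjusted p = 1.19e-05), and Slc8a3, a sodium-calcium exchanger, by 0.52 (limma with block, adjusted p = 0.00249). Scn4a, the sodium channel that carries the action potential of the fibre, was at 475, 1205, 1309 and 766 in Cre and at 181, 775, 781 and 321 in GFP. Its change of 1.00 passed with the block (limma, adjusted p = 9.03e-05) and not without it (adjusted p = 0.388).

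Store-operated entry refills the reticulum through Orai channels opened by Stim proteins. With the block Orai1 rose by 0.26 (limma, adjusted p = 0.0177) and Orai2 fell by 0.18 (limma, adjusted p = 0.0125), and 3 of the 5 genes were not called, among them Stim1 with 0.10 (adjusted p = 0.117). These 2 calls of 5 are near the 43.9% over all genes, where 22.2% were higher and 21.7% lower. The call of Orai1 was lost without pair 4 (adjusted p = 0.089) and that of Orai2 without pair 1 (adjusted p = 0.0595).

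**Figure D4:**
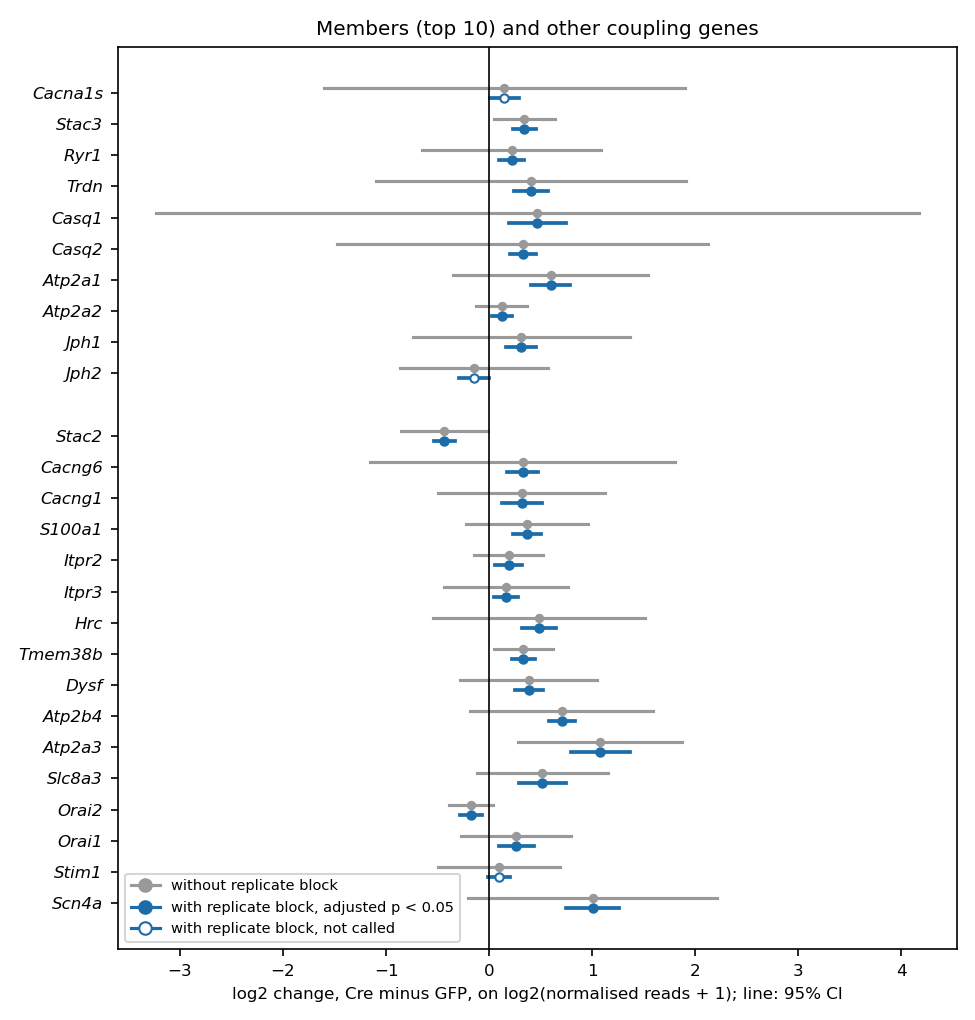
Log2 change from GFP to Cre on the log2(normalised reads + 1) scale with its 95% confidence interval, for the 10 members above and 16 other coupling genes below, without (grey) and with (blue) the replicate block. Filled blue points passed an adjusted p of 0.05, and open points (Cacna1s, Jph2, Stim1) did not.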

How the data were processed

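RNA-seq of 4 Cre and 4 GFP libraries was analysed from 1 deposited table with 20976 genes. Per the submitters' processing notes, the tools were STAR 2.5.3a, Subread with featureCounts 1.5.3 and DESeq, on GRCm38 (mm10). Annotation release, strand use and filters were not given in the sources used here. Each deposited value is a score, namely a read count that the authors had scaled and rounded, since gaps or doublings recurred at fixed intervals among the low integers. They were tested as log2(value + 1) with limma 3.58.1 (intensity trend, R 4.3.3), genes with at least 1 CPM in at least 4 libraries, 12910 in all, and Benjamini-Hochberg adjustment over them. Gene identifiers were matched to GENCODE M21 (99.8%). Coordinates are those of the table. Scripts used Python 3.11.15, and the tests were run on simulated data. There the libraries of a pair shared their means apart from planted changes, with the same dispersion for every gene. That run therefore cannot show whether the pairing holds in these libraries.

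Groups and numbers came from the sample titles. Libraries with the same number deviated together from their group means (r of 0.82 to 0.908 over genes), while for other Cre and GFP libraries r was -0.597 to 0.477, with libraries 2 and 3 the positive ones (0.426 and 0.477), so numbers were taken to pair the libraries, on the values alone. Replicates of a group differed beyond counting noise. Nothing says which libraries came from separate cultures, so p-values without the block measure the spread between these libraries. Those with the block measure the spread of the Cre to GFP differences within these pairs. Reads are not independent molecules, and at this depth the spread between libraries, more than counting error, limits the precision.

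Named genes were Chd4, the members, up to 3 genes of each other coupling list with the smallest paired p, and the 5 genes most like the members. Ryr2, Ryr3, Cacna1c and the marker genes with values were named besides, some after their values were seen. Members and lists were chosen with earlier results of these data known.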

Additional observations from a re-analysis of the deposited data

Results flagged for a closer look

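In each group of 4 libraries, a highest or lowest value was marked when its gap to the nearest other library exceeded the Dixon 95% limit as a share of the range, over 60 groups for 30 genes. Chance marks about 1 group in 20, and 3 were marked. All 3 lay in Ryr2 and Cacna1c, which were among the genes named besides the rule, some after their values were seen. The count therefore cannot be set against chance. Ryr2 was high in library 4 of both groups, with gaps of 0.997 of the range in Cre and 0.996 in GFP. Cacna1c was high in GFP library 2, with 91 normalised reads against 19 to 29 in the other GFP libraries and a gap of 0.861 of the range.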

How the results depend on the processing

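The calls of the members depended mostly on the pairing. Without the block, 0 of 10 members were called under every alternative run, namely voom, pseudocounts of 0.1 and 5, no filter, a filter of 5 CPM, upper-quartile or equal-total rescaling, and each single library left out. With the replicate block 8 members were higher. With the block and 1 pair left out, 7 to 8 were higher, namely 8 without pair 1 (Cacna1s gained, Atp2a2 lost), 7 without pair 2, 8 without pair 3 and 7 without pair 4, and 1 (Jph2) was lower without pair 4. With the block and voom 7 were higher, with a filter of 5 CPM 8, with no filter 8, with upper-quartile rescaling 9 (Cacna1s gained), and with equal totals 7 with 1 lower (Jph2).

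Over all genes the unpaired model called 108 higher and 32 lower, and a filter of 5 CPM left 58 higher. Leaving out 1 library left 0 to 51 higher and 1 to 7 lower, with fewer samples and a broken pair in each such fit. The block called 2861 higher and 2804 lower. With the block, the counts were 2563 higher and 2360 lower without pair 1, 2213 and 2276 without pair 2, 2420 and 2380 without pair 3, and 2165 and 2096 without pair 4. They were 2883 and 2830 with voom and the block, 2353 and 2626 with the 5 CPM filter, 3123 and 2538 with no filter, 3269 and 2447 with upper-quartile rescaling, and 2607 and 3157 with equal totals.

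Leaving out 1 library without the block also turned uncalled directions, as it removes 1 side of a pair. In those fits the log2 change ran from -0.46 to 1.33 for Casq1, -0.22 to 0.87 for Casq2, -0.37 to 0.70 for Cacna1s, -0.074 to 0.49 for Ryr1, -0.34 to 0.11 for Jph2, -0.022 to 0.68 for Cacng6 and -0.050 to 0.26 for Stim1, and none of them was called.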
